A study of Mus musculus with 9 samples.

Results

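The genes described here are 8 genes that hold T lymphocytes in a resting, circulating state, namely Foxo1, Klf2, S1pr1, Il7r, Tcf7, Lef1, Satb1 and Bach2. They were found by name, each as 1 row, among the 56860 genes of the deposited count table, and all 8 were among the 19348 genes with enough counts to be tested. RNA was sequenced from mouse spleen cells labelled CD4+ T cells in 9 libraries, 3 from each of 3 groups. The groups were CIA mice given luteolin (LUT, a plant flavone), CIA mice, and control mice. CIA is the labels' word and the usual short form of collagen-induced arthritis, a mouse model of rheumatoid arthritis, which the series title names as RA. Strain, sex, age, the dose and timing of luteolin, and how the CD4+ cells were isolated are not given in the sources used here. Nothing says whether the replicates are separate animals, pools or repeat preparations, so p-values measure only the spread between these libraries.

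A resting naive T cell is kept so by an active transcription program. FOXO1, a forkhead factor shut out of the nucleus by PI3K and AKT signalling, switches on KLF2, and KLF2 in turn switches on S1PR1, the receptor by which lymphocytes leave lymphoid organs toward sphingosine 1-phosphate (S1P) in blood and lymph. FOXO1 also maintains IL7R, the receptor chain for the survival cytokine IL-7. TCF-1 (Tcf7) and LEF1 are paired HMG-box factors of T cell identity, SATB1 organises chromatin in lymphocytes, and BACH2 represses effector genes. Only part of the program belongs to T cells: B cells also express Klf2, S1pr1, Foxo1, Satb1 and Bach2, whereas in the mature spleen Tcf7 is chiefly a gene of T cells and innate lymphoid cells.

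The libraries held 31234177 to 41815573 counts, and a member's lowest count was 145 (Klf2 in CIA replicate 3). Levels are given as CPM, counts relative to library size after TMM scaling, with the SD over 3 libraries, and as RPKM (the same per kilobase of exon) where genes are compared with each other. The label of the cells was checked against markers. Cd4 averaged 104 ± 4.57 CPM with luteolin, 128 ± 39.6 CPM in CIA and 2.92 ± 0.639 CPM in control (SD, n = 3 each). Per length, the B cell receptor gene Cd79a stood at 18.0 ± 2.48, 36.3 ± 19.6 and 79.8 ± 4.21 RPKM in the same order, and the T cell receptor gene Cd3e at 6.14 ± 0.419, 9.45 ± 2.96 and 3.30 ± 0.402 RPKM. Cd79a was thus above Cd3e in the mean of every group, and control held little of the gene that names the cells. The order depends on the pair of markers. Cd247, another gene of the T cell receptor complex, averaged 16.9 RPKM with luteolin, 24.0 RPKM in CIA and 13.9 RPKM in control. The B cell gene Ms4a1 averaged 13.3, 18.2 and 62.1 RPKM, so it was above Cd247 in control only. The summed level of 10 T cell markers ranged from 394 to 414 CPM with luteolin, 394 to 687 in CIA and 159 to 181 in control. For 8 B cell markers these ranges were 394 to 493, 285 to 1720 and 1940 to 2040 CPM, and none of these 18 markers was at 0 in any library. The CIA libraries were the most uneven: replicate 1 had the highest B cell sum of its group (1720 CPM) and the lowest T cell sum (394 CPM), and replicate 3 had the lowest B cell sum (285 CPM) and the highest T cell sum (687 CPM). In such bulk RNA, fewer cells of a type and less RNA of a gene in each cell cannot be told apart, which holds for every level below.

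The members differed widely in abundance, and their order differed between groups. Per length, Il7r was highest with luteolin at 36.9 ± 0.505 RPKM, then Tcf7 at 31.8 ± 1.27, S1pr1 at 14.9 ± 1.44, Klf2 at 4.67 ± 0.255, Satb1 at 4.28 ± 0.461, Bach2 at 3.51 ± 0.225, Lef1 at 2.88 ± 0.340 and Foxo1 at 2.29 ± 0.193 RPKM. Only Klf2 and Satb1 were neighbours with overlapping libraries in that order. In CIA the mean RPKM was 45.2 ± 12.3 for Tcf7, 32.9 ± 7.57 for Il7r and 30.1 ± 8.61 for S1pr1, whose libraries overlapped. Bach2 (7.44 ± 3.44), Satb1 (5.77 ± 2.17), Klf2 (5.70 ± 2.89), Foxo1 (4.65 ± 1.06) and Lef1 (3.01 ± 0.580) followed in CIA, all of them below S1pr1 and each overlapping the next. In control S1pr1 led at 43.1 ± 1.21 RPKM, above Il7r at 25.4 ± 2.99, Tcf7 at 20.9 ± 1.51, Klf2 at 13.9 ± 1.95, Bach2 at 12.1 ± 1.06, Satb1 at 9.76 ± 0.469, Foxo1 at 5.39 ± 0.624 and Lef1 at 4.04 ± 0.480 RPKM. There only Klf2 and Bach2 overlapped as neighbours. S1pr1 was the most abundant of the 8 in control and the third with luteolin.

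**Figure D1:**
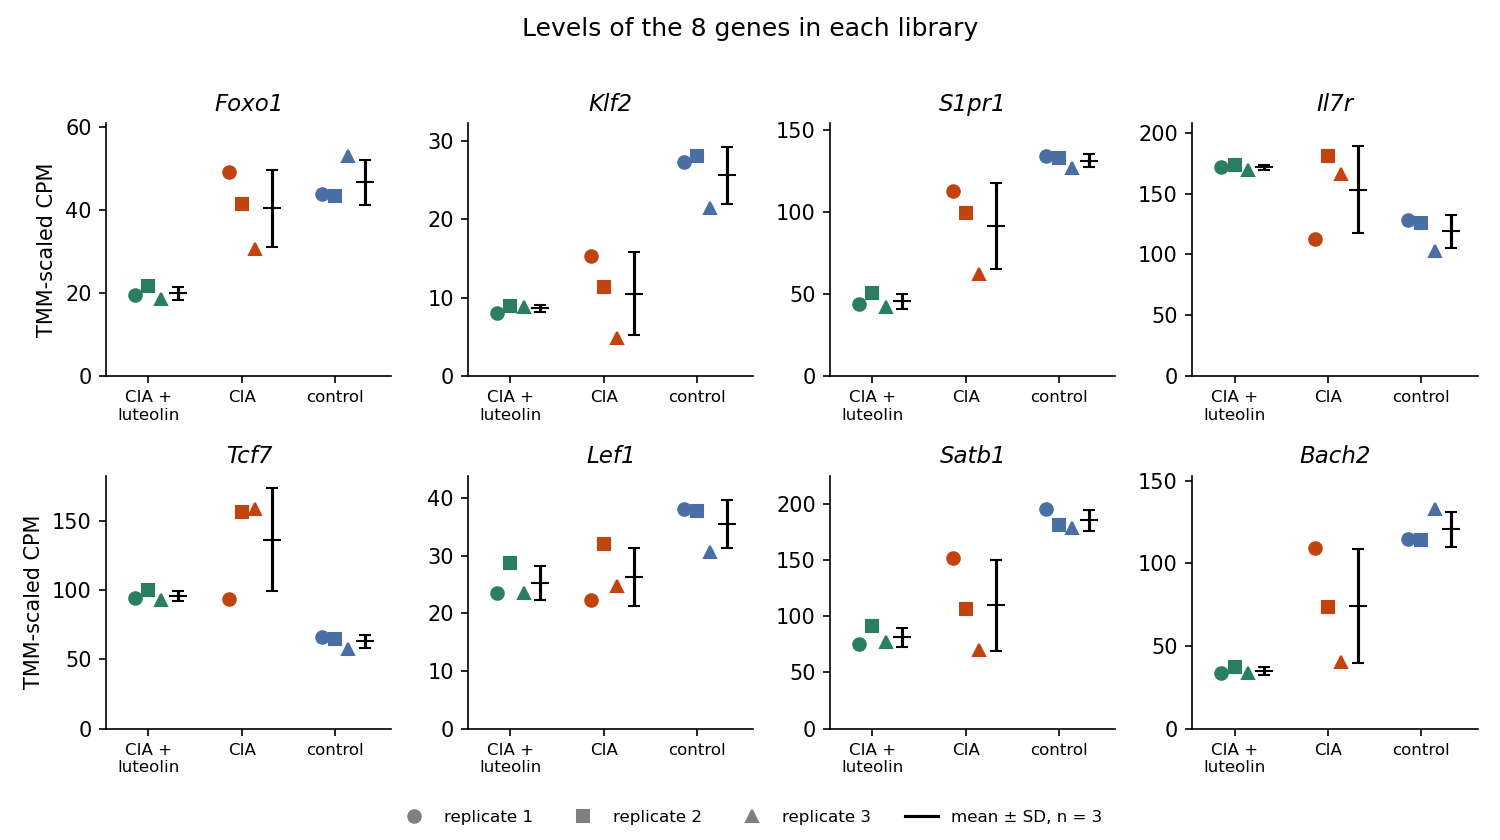
Levels of the 8 genes in TMM-scaled CPM (y axis, starting at 0) in each library of CIA with luteolin, CIA and control (x axis); symbols mark replicates, and black bars the mean ± SD of 3. The luteolin libraries lie close together, and CIA is widely spread, with S1pr1 between 62.3 and 113 CPM.

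CIA was first compared with control, groups whose libraries also differed in Cd4 and in their B cell marker sums. Of the 8 genes, 1 rose and 5 fell at an adjusted p under 0.05 (edgeR's quasi-likelihood test, Benjamini-Hochberg over all tested genes). Of all 19348 tested genes 51.1% passed, 26.6% higher and 24.5% lower, so passing is common here, and 6 of 8 lies not far above that. The members' median log2 fold change was -0.47, against -0.01 over all tested genes. In 5 of the 8 the CIA and control libraries did not overlap, a pattern seen in 58.7% of tested genes. When only the 6 libraries of CIA and control were fitted, 3 members passed, namely Klf2, Satb1 and Tcf7.

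Foxo1, at the head of the pathway (chromosome 3, 52175757 to 52260642, plus strand, build mm39), did not pass in CIA. Its levels were 49.0, 41.3 and 30.6 CPM in CIA and 43.9, 43.2 and 52.9 CPM in control, and the groups overlapped. The log2 fold change was -0.21 ± 0.16 (adjusted p = 0.280 by edgeR), but without CIA replicate 1 it was -0.38 and passed (adjusted p = 0.0382).

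Klf2, the factor downstream of FOXO1 (chromosome 8, 73072877 to 73075500, plus strand, mm39), had the largest fall of the 8. It stood at 15.3, 11.4 and 4.80 CPM in CIA, against 27.3, 28.1 and 21.5 CPM in control. Every CIA library was below every control library, with the lowest value in CIA replicate 3. The log2 fold change was -1.28 ± 0.31, a level 2.43-fold lower in CIA (adjusted p = 0.00578 by edgeR), and it ranged from -1.66 to -0.93, always past the threshold, with any 1 of the 6 libraries left out. The promoter of Klf2 is shown because this gene carries the fall most clearly. It is known for a site of MEF2 factors, through which the kinase ERK5 raises Klf2. In the RefSeq window of 250 bases before to 50 after the transcription start (build GRCm38.p6, chr8:72318812-72319111, plus strand, 5′ to 3′) capitals mark a palindromic MEF2 motif, found at position -118 from the start:
Klf2 promoter: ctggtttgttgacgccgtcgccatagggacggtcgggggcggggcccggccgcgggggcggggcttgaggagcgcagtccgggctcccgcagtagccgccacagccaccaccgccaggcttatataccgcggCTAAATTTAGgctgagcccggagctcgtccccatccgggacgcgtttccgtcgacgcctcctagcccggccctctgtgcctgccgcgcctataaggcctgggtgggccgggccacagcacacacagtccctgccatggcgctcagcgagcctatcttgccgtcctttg
These letters, the same on both strands, were in 13 of the 32851 promoter windows of the table (0.0396%). Only this exact string was searched, so other forms of MEF2 sites are not in that share. The site was known for Klf2 beforehand, so finding it there is no test. The string is longer than the other motifs searched here, so its share cannot be compared with theirs. A match describes letters and not a bound site.

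S1pr1, the exit receptor (chromosome 3, 115504082 to 115508721, minus strand, mm39), also fell. It had 113, 99.6 and 62.3 CPM in CIA, against 134, 133 and 127 CPM in control. The groups did not overlap, with CIA replicate 3 the lowest and the control libraries close together. S1pr1 stood at -0.52 ± 0.18 in log2 fold change (adjusted p = 0.0296 by edgeR). The value was -0.30 without CIA replicate 3, still past the threshold, and the call was lost without control replicate 1 (-0.51, adjusted p = 0.0773), control replicate 2 (-0.52, adjusted p = 0.0730) or control replicate 3 (-0.54, adjusted p = 0.0567). It was lost also in the fit of only the 6 libraries (adjusted p = 0.0602).

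Il7r, the IL-7 receptor chain (chromosome 15, 9505874 to 9530262, minus strand, mm39), had 113, 181 and 166 CPM in CIA and 128, 126 and 103 CPM in control. CIA replicates 2 and 3 were above all control libraries, and CIA replicate 1 lay among them. The difference did not pass (log2 fold change 0.37 ± 0.15, adjusted p = 0.0626 by edgeR). It did pass without CIA replicate 1 (0.54, adjusted p = 0.000689), without a filter on low counts (0.36, adjusted p = 0.00345) and with genes of at least 1 CPM on average (0.41, adjusted p = 0.0447).

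Tcf7, which encodes TCF-1 (chromosome 11, 52143198 to 52174158, minus strand, mm39), was the member that rose. Its libraries stood at 93.6, 157 and 159 CPM in CIA and at 66.2, 65.1 and 57.8 CPM in control. All CIA libraries were higher, replicate 1 least so. The level was 2.16-fold higher in CIA (log2 fold change 1.11 ± 0.17, adjusted p = 0.000438 by edgeR), and it stayed between 1.0 and 1.32 with any 1 of the 6 libraries left out. Tcf7 is shown as the counterpart of Klf2, and since 1 of its 2 RefSeq windows holds letters of factors among the 8 genes. Capitals mark the KLF letters CCACACCC, here on the opposite strand as GGGTGTGG at position -69, and the FOXO letters GTAAACA at position 2 (GRCm38.p6, chr11:52282546-52282845, minus strand, 5′ to 3′):
Tcf7 promoter: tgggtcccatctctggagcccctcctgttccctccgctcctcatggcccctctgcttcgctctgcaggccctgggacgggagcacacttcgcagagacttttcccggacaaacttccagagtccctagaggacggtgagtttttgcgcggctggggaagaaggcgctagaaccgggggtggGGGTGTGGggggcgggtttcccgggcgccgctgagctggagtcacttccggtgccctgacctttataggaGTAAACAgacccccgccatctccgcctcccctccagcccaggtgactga
Both strands of each window were searched. The KLF letters were in 3.56% of all 32851 windows and the FOXO letters in 3.65%. Of the 8 genes 7 matched the table by symbol, with 15 windows in all and S1pr1 not among them. No other member's window held these letters, the TCF and LEF letters ATCAAAG (3.73% of all windows), or the BACH and AP-1 letters TGAGTCA (5.20%), which says nothing on whether those factors act there.

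Lef1, the partner of TCF-1 (chromosome 3, 130904120 to 131018005, plus strand, mm39), went the other way. It had 22.4, 32.1 and 24.7 CPM in CIA, against 38.2, 37.8 and 30.7 CPM in control. CIA replicate 2 was above the lowest control library, so the groups overlapped. The log2 fold change was -0.43 ± 0.15 (adjusted p = 0.0332 by edgeR), and the call was lost without control replicate 1 (adjusted p = 0.104), control replicate 2 (0.101), CIA replicate 1 (0.0764) or CIA replicate 3 (0.0557), and in the fit of the 6 libraries (0.0590).

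Satb1, the chromatin organiser (chromosome 17, 52043215 to 52140318, minus strand, mm39), stood at 152, 107 and 70.3 CPM in CIA, against 196, 182 and 179 CPM in control. The groups did not overlap. It fell by 0.76 on the log2 scale (SE 0.22, adjusted p = 0.0135 by edgeR) and kept passing with any 1 library left out, at -1.07 to -0.51. Bach2, the repressor of effector genes (chromosome 4, 32238804 to 32586108, plus strand, mm39), had 109, 73.3 and 40.1 CPM in CIA, against 115, 114 and 133 CPM in control. No CIA library reached the control range, though replicate 1 came close to it. The log2 fold change of Bach2 was -0.70 ± 0.26 (adjusted p = 0.0452 by edgeR). For Bach2 it was -1.09 without CIA replicate 1 and -0.40 without CIA replicate 3, both past the threshold. The Bach2 call was lost without control replicate 1 (-0.74, adjusted p = 0.0828), control replicate 2 (-0.75, adjusted p = 0.0795), control replicate 3 (-0.63, adjusted p = 0.121) or CIA replicate 2 (-0.70, adjusted p = 0.104). It was lost also among genes of at least 1 CPM (-0.67, adjusted p = 0.0549) and in the fit of the 6 libraries (adjusted p = 0.0897).

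Within CIA, Foxo1, Klf2, S1pr1, Satb1 and Bach2 were each highest in replicate 1 and lowest in replicate 3, as was the B cell marker sum (1720, 989 and 285 CPM in CIA replicates 1 to 3). Tcf7, Il7r and Lef1 were lowest in CIA replicate 1, as was the T cell marker sum (394, 629 and 687 CPM). Tcf7 was highest in CIA replicate 3, as was that sum, whereas Il7r and Lef1 were highest in CIA replicate 2. Of the 8 B cell markers 4 fell in CIA against control and none rose. All 10 T cell markers rose, and both CD8 markers fell, with a summed 12 to 15.1 CPM in CIA and 36.3 to 55.2 CPM in control. Of 10 neutrophil markers 9 rose, with a summed 5710 to 9840 CPM in CIA and 1880 to 2280 CPM in control, and 6 of 8 macrophage markers fell. All 6 basophil and mast cell markers and all 5 megakaryocyte markers rose, as did 2 of 4 tested NK cell markers. Of the tested markers of plasma cells 2 of 3 rose and 1 fell, of dendritic cells 1 of 6 rose and 4 fell, of B cell precursors 3 of 4 fell, and of erythroid cells none of 5 passed. The part of these cell markers in the members' changes was not tested.

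**Figure D2:**
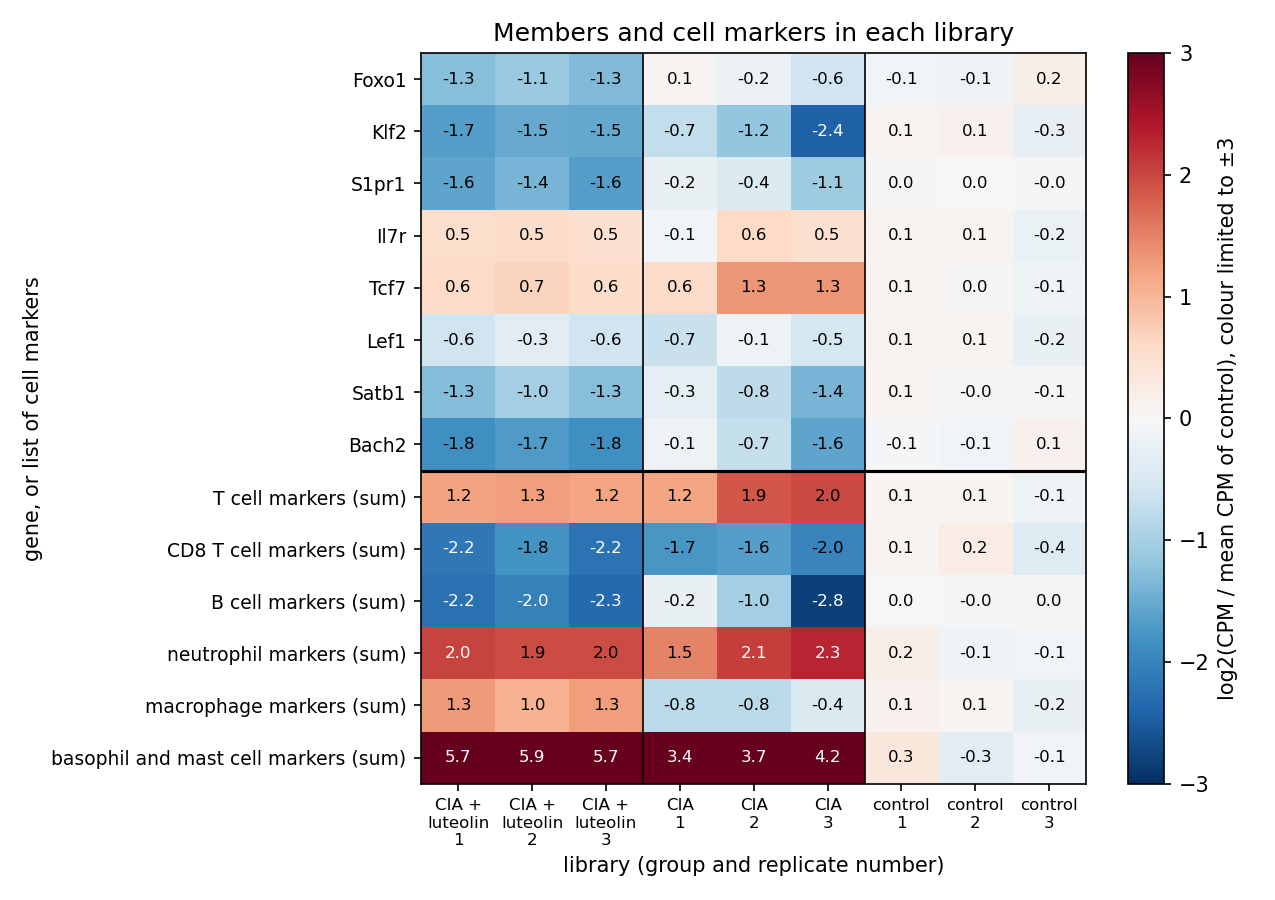
Colour and number give the log2 ratio of CPM to the mean of the control libraries for each of the 8 genes and for the summed CPM of 6 lists of cell markers (rows) in each library (columns). In CIA replicate 3 Klf2 stands at -2.42 and the B cell sum at -2.81, whereas in CIA replicate 1 they stand at -0.74 and -0.22.

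The pathway around the members was read from lists of known genes. Among 17 further regulators of quiescence 9 rose and 3 fell in CIA. Vsir, the inhibitory receptor VISTA, rose by 1.41 ± 0.13 on the log2 scale to 140 ± 28.2 CPM in CIA, against 52.7 ± 2.69 CPM in control (SD, n = 3), and the repressor gene Zeb1 rose by 0.99 ± 0.11. Pik3ip1, an inhibitor of PI3K, changed by -1.97 ± 0.23, to 26.3 ± 9.65 CPM in CIA against 103 ± 7.07 CPM in control. Among 11 homing and adhesion receptors 5 rose and 5 fell. The integrin genes Itga4 and Itgal rose by 1.11 ± 0.08 and 0.94 ± 0.09, and the gut-homing receptor gene Ccr9 changed by -1.09 ± 0.18. Ccr7, a chemokine receptor for entry into lymph nodes, falls outside the rule for naming genes and was added after its values were seen. It fell to 18.9 ± 6.84 CPM in CIA, against 36.2 ± 0.836 CPM in control (log2 fold change -0.93 ± 0.20, adjusted p = 0.00300 by edgeR).

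Of 14 genes of the S1P pathway other than S1pr1, 5 rose and 2 fell in CIA (1 lower without any 1 control library, 4 without CIA replicate 1). Arrb2, a beta-arrestin that takes receptors off the surface, rose by 2.07 ± 0.18, and S1pr2, another S1P receptor, by 1.56 ± 0.31 (1.02 without CIA replicate 3). Spns2, the S1P exporter of endothelium, changed by -1.78 ± 0.29, at the low levels of 0.582 ± 0.167 CPM in CIA and 2.00 ± 0.593 CPM in control. Of 14 genes of IL-7 signalling 7 rose and 3 fell. The kinase gene Pim1 rose by 1.29 ± 0.10 and the repressor gene Gfi1 by 2.16 ± 0.26, whereas Crlf2, the TSLP receptor chain that pairs with IL7R, changed by -1.47 ± 0.17. Bcl2, the survival gene downstream of IL-7 and chosen after its values were seen, changed by -0.82 ± 0.15.

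Among 12 partners of TCF and LEF 4 rose and 2 fell (1 lower without control replicate 1 or CIA replicate 2, 6 without CIA replicate 1). Axin2, a target of Wnt signalling, rose by 1.46 ± 0.18, and the corepressor genes Tle5 and Tle3 by 0.60 ± 0.07 and 0.56 ± 0.07. Of 15 tested genes of FOXO and PI3K signalling 4 rose and 4 fell, with Foxo3, a related forkhead factor, at 0.55 ± 0.08, Pdpk1, the kinase that activates AKT, at 0.88 ± 0.15 and Sgk1, another kinase that acts on FOXO factors, at -0.87 ± 0.16. Of 12 tested KLF relatives of Klf2 5 rose and 1 fell (2 lower without control replicate 3, CIA replicate 1 or CIA replicate 3), with Klf7 at 1.80 ± 0.16, Klf5 at 2.69 ± 0.27 and Klf9 at 1.24 ± 0.17. All 6 BACH and SATB relatives and partners rose. Among them Bach1, a relative of Bach2, rose to 158 ± 61.3 CPM in CIA, against 54.8 ± 1.07 CPM in control (1.53 ± 0.21), and Prdm1 (Blimp-1), a gene that BACH2 represses and that was chosen outside the rule after its values were seen, rose by 0.50 ± 0.12. Of 12 genes of T cell activation 6 rose and 1 fell (3 lower without CIA replicate 1), the costimulatory receptor gene Icos by 4.96 ± 0.43. Over all tested genes 26.6% rose and 24.5% fell, which is the measure for these counts.

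The CIA libraries with luteolin were next compared with those without it. Of the 8 genes 4 fell with luteolin (S1pr1, Foxo1, Bach2 and Tcf7) and none rose, where 47.3% of all tested genes passed, 23.1% higher and 24.2% lower. The members' median log2 fold change was -0.47, against -0.04 over all tested genes. The luteolin and CIA libraries did not overlap for 3 members, S1pr1, Foxo1 and Bach2, as for 55.7% of tested genes. The CIA libraries enter this comparison and the one against control, so the changes in both are not independent of each other.

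Foxo1 was at 19.4, 21.7 and 18.5 CPM with luteolin, against 49.0, 41.3 and 30.6 CPM in CIA. Each luteolin library was below each CIA library. The log2 fold change was -1.02 ± 0.16, a level 2.03-fold lower with luteolin (adjusted p = 0.000474 by edgeR), and it stayed between -1.19 and -0.85 with any 1 library left out. On the opposite strand the gene model Gm20402 shares 674 of the 8665 exonic bases of Foxo1 and held 25.8% as many counts. As the strand setting of the counting is not given in the sources used here, reads of such antisense pairs cannot be told apart.

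S1pr1 had 43.9, 50.3 and 41.9 CPM with luteolin, against 113, 99.6 and 62.3 CPM in CIA. The groups did not overlap, and its log2 fold change was -1.01 ± 0.18 (adjusted p = 0.000999 by edgeR), between -1.23 and -0.83 with any 1 library left out. Klf2, by contrast, had 8.09, 8.96 and 8.85 CPM with luteolin and 15.3, 11.4 and 4.80 CPM in CIA. The luteolin values lay inside the CIA range. Klf2 did not pass (-0.29 ± 0.31, adjusted p = 0.468 by edgeR). Its change was 0.09 without CIA replicate 1 and -0.64 without CIA replicate 3, the second past the threshold (adjusted p = 0.00303).

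Bach2 stood at 33.7, 37.4 and 33.5 CPM with luteolin, against 109, 73.3 and 40.1 CPM in CIA. Its groups did not overlap, with CIA replicate 3 the closest to the treated libraries. The log2 fold change of Bach2 was -1.09 ± 0.27 (adjusted p = 0.00699 by edgeR), -0.70 without CIA replicate 1 and -1.39 without CIA replicate 3, all past the threshold. The antisense gene Bach2os shares 537 of its 9940 exonic bases and held 17.0% as many counts. Satb1 had 75.5, 91.4 and 77.1 CPM with luteolin and 152, 107 and 70.3 CPM in CIA. CIA replicate 3 was below all treated libraries, and Satb1 did not pass (-0.43 ± 0.21, adjusted p = 0.121 by edgeR). Without CIA replicate 3 it was at -0.68 and passed (adjusted p = 0.000679), as it did at -0.41 without a filter on low counts (adjusted p = 0.000761).

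Tcf7 was at 94.5, 100 and 93.0 CPM with luteolin, against 93.6, 157 and 159 CPM in CIA. CIA replicate 1 lay within the treated range, and the other CIA libraries were higher. Its log2 fold change of -0.51 ± 0.17 (adjusted p = 0.0292 by edgeR) was lost in the fit of the 6 libraries (adjusted p = 0.0740) and without CIA replicate 2 (-0.39, adjusted p = 0.118), CIA replicate 3 (-0.39, adjusted p = 0.0533), luteolin replicate 1 (-0.49, adjusted p = 0.0857), luteolin replicate 2 (-0.49, adjusted p = 0.0795) or luteolin replicate 3 (-0.48, adjusted p = 0.0902). Lef1 had 23.6, 28.7 and 23.5 CPM with luteolin and 22.4, 32.1 and 24.7 CPM in CIA. The groups overlapped, and Lef1 did not pass (-0.06 ± 0.15, adjusted p = 0.751 by edgeR). Il7r had 172, 174 and 170 CPM with luteolin and 113, 181 and 166 CPM in CIA. CIA replicate 1 alone was far below the treated libraries, and Il7r did not pass (0.17 ± 0.15, adjusted p = 0.397 by edgeR).

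**Figure D3:**
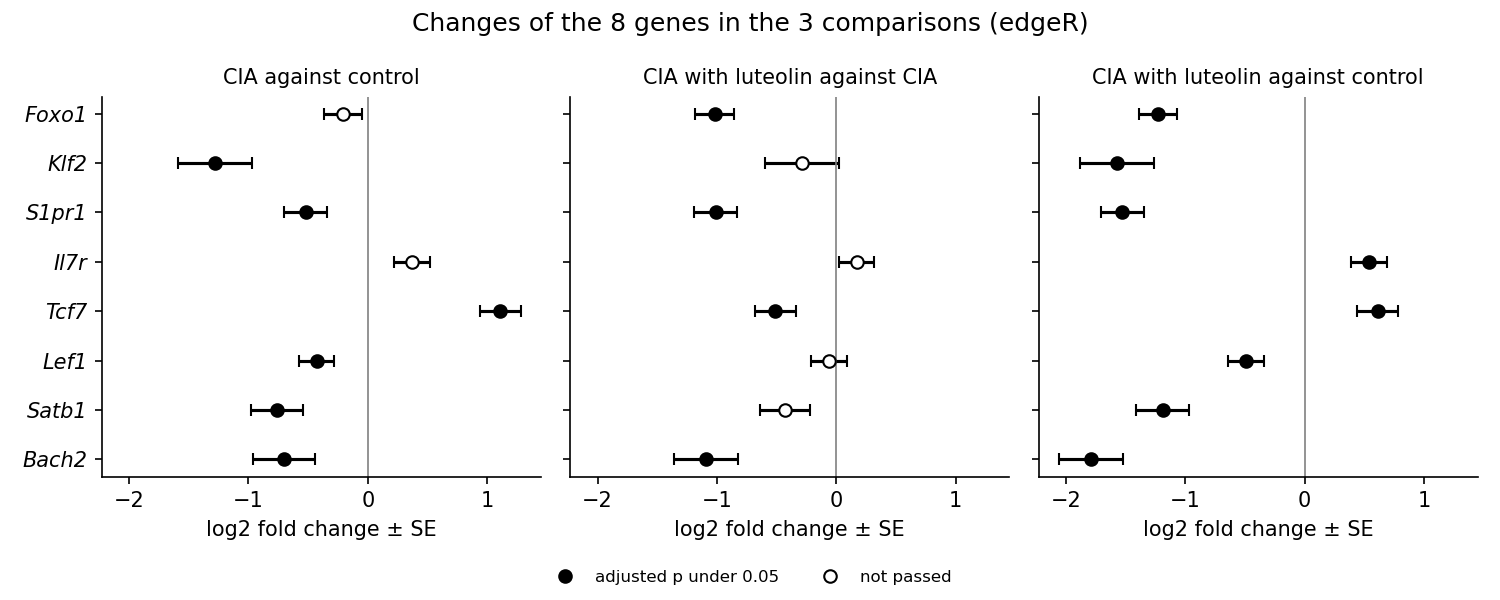
Log2 fold change ± SE (x axis) of the 8 genes (rows) from edgeR in the 3 comparisons, with filled points for an adjusted p under 0.05. Tcf7 in CIA and Tcf7 and Il7r with luteolin against control are the filled points to the right of 0, and the other filled points lie to the left.

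The same lists were read with luteolin against CIA, where 24.2% of tested genes fell. Of the 15 tested genes of FOXO and PI3K signalling 12 fell and 2 rose. The cyclin gene Ccng2 and the stress sensor gene Sesn3, both known FOXO targets, changed by -0.97 ± 0.10 and -0.80 ± 0.09. Sgk1 rose by 2.47 ± 0.17, to 121 ± 14.2 CPM with luteolin against 21.7 ± 5.04 CPM in CIA (SD, n = 3). Of the 17 quiescence regulators 10 fell and 1 rose (2 higher without CIA replicate 1), with the antiproliferative genes Btg2 at -1.20 ± 0.09 and Btg1 at -0.77 ± 0.10 and Txnip, a brake on glucose uptake, at -0.84 ± 0.10. Of the 12 tested KLF relatives 7 fell and 1 rose, Klf11 by -2.01 ± 0.19, Klf3 by -0.67 ± 0.09 and Klf7 by -0.98 ± 0.16. Among the 6 BACH and SATB relatives and partners 5 fell and none rose. Bach1 fell to 63.3 ± 1.39 CPM with luteolin, against 158 ± 61.3 CPM in CIA (-1.32 ± 0.21), and the small MAF genes Maff and Mafk changed by -1.50 ± 0.23 and -0.93 ± 0.16. Prdm1 changed by -0.46 ± 0.12 (adjusted p = 0.00967 by edgeR, 0.0683 without luteolin replicate 2).

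Of the 12 partners of TCF and LEF 6 fell and 1 rose. Tcf7l2, a relative of Tcf7, rose by 2.79 ± 0.27 to 8.20 ± 0.884 CPM with luteolin, against 1.19 ± 0.323 CPM in CIA, and the destruction complex gene Apc and the corepressor gene Tle4 changed by -0.67 ± 0.08 and -0.58 ± 0.10. In the homing list 3 rose and 4 fell (2 lower without luteolin replicate 1). Itga4 changed by -0.80 ± 0.08 and Cxcr4, the receptor for CXCL12, by -1.11 ± 0.12, while the gut-homing integrin gene Itgb7 rose by 0.55 ± 0.11. Ccr7 did not pass in edgeR (0.32 ± 0.20, adjusted p = 0.208), though it did without CIA replicate 1 (0.65, adjusted p = 0.000763) and without a filter on low counts (0.34, adjusted p = 0.0415). In the S1P list 2 rose and 4 fell. Sphk1, a kinase that makes S1P, rose by 2.77 ± 0.48 to 2.27 ± 0.676 CPM with luteolin, against 0.329 ± 0.160 CPM in CIA. Spns2 rose by 1.22 ± 0.30 to 1.37 ± 0.0356 CPM, against 0.582 ± 0.167 CPM in CIA, and Arrb2 changed by -0.94 ± 0.18. Among the genes of IL-7 signalling 4 rose and 4 fell. The cytokine gene Il7, which stromal cells make, rose by 3.59 ± 0.44 to 0.999 ± 0.164 CPM with luteolin, against 0.0799 ± 0.0443 CPM in CIA. Crlf2 rose by 1.52 ± 0.17, and the kinase gene Jak1 changed by -0.60 ± 0.06. In the T cell activation list 5 rose and 3 fell (2 or 3 higher without CIA replicate 2 or without luteolin replicate 1 or 3). The costimulatory receptor gene Tnfrsf9 rose by 1.28 ± 0.15 and Il2ra by 0.73 ± 0.14, and Nr4a1, an early response gene of receptor signalling, changed by -0.76 ± 0.16. Among the cell markers 4 of 8 of B cells and 4 of 10 of T cells fell in the same comparison and none of either rose. All 8 macrophage markers rose, with a summed 608 to 707 CPM with luteolin and 167 to 217 CPM in CIA. All 6 basophil and mast cell markers rose, at 170 to 200 CPM with luteolin and 34.6 to 60.2 CPM in CIA. Of 10 neutrophil markers 5 rose and 4 fell, of 6 dendritic cell markers 4 rose, of 5 megakaryocyte markers 2 rose and 1 fell, and neither CD8 marker passed. Among the tested markers of plasma cells 2 of 3 rose, of B cell precursors 2 of 4 rose and 1 fell, of NK cells 1 of 4 rose and 3 fell, and of erythroid cells 3 of 5 fell. Their part in the members' changes was not tested.

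In CIA with luteolin against control all 8 genes passed, 2 higher and 6 lower, where 45% of all tested genes passed, 24.2% higher and 20.8% lower. No member's luteolin libraries overlapped control, a pattern of 63.3% of tested genes, and the median log2 fold change was -1.21, against -0.01 over all. Bach2 changed most, at 33.7, 37.4 and 33.5 CPM with luteolin against 115, 114 and 133 CPM in control, a level 3.46-fold lower (log2 fold change -1.79 ± 0.27, adjusted p = 0.000444 by edgeR). Every Bach2 library with luteolin was below every control library. Klf2 was 2.97-fold lower with luteolin (-1.57 ± 0.31), S1pr1 2.90-fold (-1.53 ± 0.18), Foxo1 2.35-fold (-1.23 ± 0.16) and Satb1 2.28-fold (-1.19 ± 0.22). These 5 stayed past the threshold with any 1 library left out, at adjusted p of up to 0.0130 in edgeR. Lef1 was lower (-0.49 ± 0.15, adjusted p = 0.0201 by edgeR) but lost the call without control replicate 1 (adjusted p = 0.0741), control replicate 2 (0.0718), luteolin replicate 1 (0.0799) or luteolin replicate 3 (0.0819). Tcf7 was 1.52-fold higher (0.61 ± 0.17, adjusted p = 0.0137) and Il7r 1.45-fold (0.54 ± 0.15, adjusted p = 0.0148), and without control replicate 3 neither passed in edgeR (adjusted p = 0.0553 and 0.0635). Around the members the lists went different ways. Of 17 quiescence regulators 4 rose and 8 fell, and of 15 tested genes of FOXO and PI3K signalling 3 rose and 9 fell. Of 14 genes of IL-7 signalling 7 rose and 3 fell (1 lower without control replicate 1 or 2 or any 1 luteolin library), and of 12 genes of T cell activation 7 rose and 2 fell. In the S1P list 4 rose and 3 fell, among the partners of TCF and LEF 5 rose and 4 fell, and among the tested KLF relatives 4 rose and 3 fell (5 lower in the fit of the 6 libraries). Of 11 homing receptors 4 rose and 5 fell (3 lower without control replicate 1 or 3 or luteolin replicate 2 or 3). Of the 6 BACH and SATB relatives and partners 1 rose and 1 fell (none lower without control replicate 1 or 2 or luteolin replicate 1 or 2, 3 higher in the fit of the 6 libraries, and none higher among genes of at least 1 CPM). In the same comparison all 8 B cell markers and both CD8 markers fell. All 10 T cell markers rose, as did all 10 neutrophil markers, with a summed 7800 to 8260 CPM with luteolin and 1880 to 2280 CPM in control, and all 6 basophil and mast cell markers, with 170 to 200 CPM with luteolin and 2.56 to 4.10 CPM in control. Of 8 macrophage markers 6 rose and 1 fell, of 5 megakaryocyte markers 4 rose, and of 6 dendritic cell markers 3 rose. All 3 tested plasma cell markers and 1 of 4 tested NK cell markers rose, whereas 2 of 4 tested B cell precursor markers and 3 of 5 tested erythroid markers fell. The part of these markers in the members' changes was not tested.

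Set against the T cell receptor genes, the members split further. Each member's RPKM was divided by the mean RPKM of the CD3 chain genes Cd3d, Cd3e, Cd3g and Cd247 of the same library, a measure chosen after the data were seen. With 3 libraries a group an exact permutation test cannot go below p = 0.1, so the ratios are given as values. Tcf7 stood at 2.52 ± 0.0296 times the CD3 mean with luteolin, 2.78 ± 0.230 in CIA and 2.56 ± 0.110 in control (SD, n = 3 each). All 3 groups overlapped in that ratio, although the CPM of Tcf7 was 2.16-fold higher in CIA than in control. Il7r had a ratio of 2.93 ± 0.101 with luteolin, 2.04 ± 0.0961 in CIA and 3.10 ± 0.0216 in control. No CIA library reached the lowest ratio of either other group for Il7r, though its CPM had overlapped between CIA and each of them. Lef1 was at 0.228 ± 0.0164 with luteolin, 0.189 ± 0.0277 in CIA and 0.493 ± 0.00466 in control, so that its control libraries stood well apart. Among the others the ratio was lower in every luteolin and CIA library than in every control library. For Klf2 it was 0.371 ± 0.0238 with luteolin, 0.388 ± 0.267 in CIA and 1.69 ± 0.0680 in control. For S1pr1 the ratios were 1.18 ± 0.0563, 1.99 ± 0.943 and 5.30 ± 0.482, for Foxo1 0.182 ± 0.00640, 0.307 ± 0.136 and 0.670 ± 0.161, for Satb1 0.339 ± 0.0223, 0.389 ± 0.232 and 1.20 ± 0.108, and for Bach2 0.278 ± 0.00630, 0.507 ± 0.341 and 1.51 ± 0.319, in the order luteolin, CIA and control. The ratio counts a member's RNA from all cells against RNA of T cells, so it is no level per T cell. The CD3 genes also need not stand for the same T cells in each group. Cd4 averaged 25.7 RPKM with luteolin, 31.7 RPKM in CIA and 0.725 RPKM in control, and Cd8a 1.14, 1.31 and 4.84 RPKM. No other divisor was used, and the T cell markers rose unequally. From control to CIA Cd247 went from 74.1 to 128 CPM and Zap70 from 8.59 to 61.5 CPM. Over the 10 T cell markers the median log2 fold change against control was 1.72 in CIA and 1.17 with luteolin. For Tcf7 it was 1.11 and 0.61, and for Il7r 0.37 and 0.54. The ratios, and their overlap between groups, thus hold for the CD3 genes only.

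**Figure D4:**
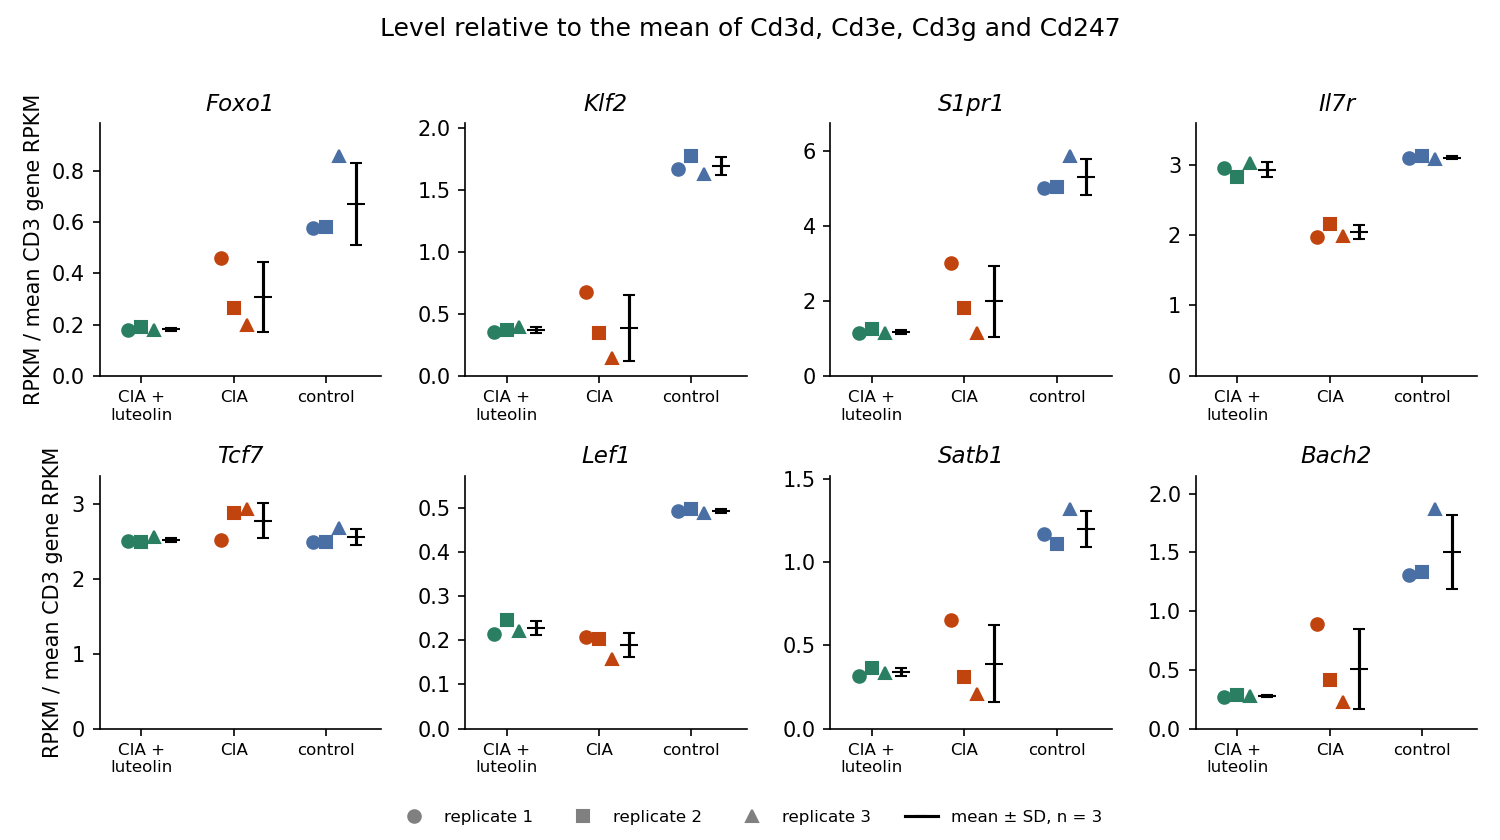
RPKM of each of the 8 genes divided by the mean RPKM of 4 CD3 chain genes in the same library (y axis, starting at 0), for CIA with luteolin, CIA and control (x axis); symbols mark replicates, and black bars the mean ± SD of 3. Tcf7 overlaps in all groups between 2.49 and 2.94, whereas Klf2 is at 1.63 to 1.77 in control and at or below 0.674 elsewhere.

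The genes most like each member over the 9 libraries were picked by Pearson's r of log2(CPM + 0.5) among 7944 named genes with at least 10 CPM on average. The 9 libraries share large differences between the groups, so high r is common and is given as a description. Tcf7 was most like Ppme1 (r = 0.995), Cd3e (0.993) and Smap1 (0.992). Satb1 was most like Cd2ap (0.997) and Myo1e (0.996). Cd2ap averaged 96.6 CPM with luteolin, 126 CPM in CIA and 196 CPM in control. Klf2 was nearest to Hdac10 (0.994), the MHC class II gene H2-Ab1 (0.993) and Trim7 (0.992), and S1pr1 to Ablim1 (0.995), Zbtb4 (0.994) and Prob1 (0.993). For Foxo1 these were Slamf6 (0.997), Birc6 (0.996) and Clec2i (0.993), and for Bach2 the lymphocyte adaptor gene Lax1 (0.999), Fam3c (0.997) and Pik3c2b (0.996). Il7r was nearest to Tmem9b (0.974), the T cell kinase gene Prkcq (0.969) and Rab32 (0.967). Lef1 had the lowest best match, with Lrrc39 (0.942), Evi2 (0.940) and Nlrc3 (0.931).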

How the data were processed

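RNA-seq counts of 9 spleen libraries were analysed, 3 per group, with groups taken from the labels. Per the labels' protocols, stranded mRNA libraries were read as pairs, mapped with a program written as STRA (2.5.3a) and counted over exons by the authors with featureCounts (Subread 1.5.1). The submitters' processing notes name Trimmomatic 0.36 for trimming and give build mm39, whereas the protocol names a hamster genome, CHOK1GS; the table lists mouse genes. The deposited values are raw counts. Of values from 1 to 10, 73.4% were even, against 52.8% from 201 to 1000, a pattern that counting each mate of a pair would leave. Strand setting is not given in the sources used here, so antisense overlap cannot be told apart. It touched Foxo1, Bach2, Lef1 (13.7% of exonic bases, counts of Lef1os1 at 6.96% of those of Lef1) and 128 of 19027 exonic bases of Satb1, which shares 156 more with a gene on its own strand. No exon of the other members was touched.

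The deposited counts entered edgeR 4.0.16 (R 4.3.3) unchanged (filterByExpr, TMM, 1 quasi-likelihood model of all libraries with a term per group, no block, 2-sided tests, Benjamini-Hochberg over 19348 genes, threshold 0.05). SE is the log2 fold change over the square root of F. The fit was also run on simulated counts with planted changes, drawn with its own estimates of spread, and the outcome is not given here. RPKM is TMM-scaled CPM per kilobase of the deposited exon length. The members and the 9 pathway and 12 marker lists were chosen with earlier results of these data known. From each pathway list up to 3 genes with the smallest p could be named for CIA over control and for the treated over untreated CIA libraries, with the 3 genes most like each member; 1 gene so chosen is not reported here. No 2 libraries of a group were duplicates (chi-square per degree of freedom at least 5.51). Alternatives were other scalings, filters, DESeq2 1.42.0, only the 6 libraries compared, a replicate block, halved counts and leaving out each library. The promoter sequences are RefSeq's, build GRCm38.p6; other coordinates are mm39.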

Additional observations from a re-analysis of the deposited data

How the results depend on the processing

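In CIA against control 6 members passed, 3 in the fit of only the 6 libraries and 3 to 7 with 1 library left out. With luteolin over CIA 4 passed, 3 to 5 with 1 library left out, and in luteolin against control 8, 6 to 8 with 1 left out. No called member changed direction. Among those not called in luteolin against CIA, Klf2 turned to 0.09 and Il7r to -0.0048 without CIA replicate 1, and Lef1 to 0.11 without CIA replicate 2. With any 1 library left out, Klf2 ranged from -0.64 to 0.09, Il7r from -0.0048 to 0.30 and Lef1 from -0.16 to 0.11. The cause was not tested. Replicate numbers are shared between groups. Deviations of libraries with the same number correlated at -0.032 for CIA and luteolin replicate 1, and at 0.048 to 0.224 for every other such pair. Those with different numbers correlated at -0.284 to 0.183, the highest being CIA replicate 1 with luteolin replicate 2. The same-number correlations were thus weak but mostly positive, and whether the numbers mark a pairing or a batch was not tested. With the number as a replicate block 6, 4 and 8 members passed, and 9794, 9148 and 8764 of all genes, against 9886, 9148 and 8708 without it. DESeq2's size factors, upper-quartile factors, DESeq2's own test and halved counts gave 6, 4 and 8 members, and the median of all genes moved by at most 0.063 on the log2 scale with another scaling. The lowest count of a member was 145. The SD was 19.3% to 50.7% of the mean over the CIA libraries, against 1.37% to 11.8% with luteolin and 2.79% to 14% in control.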
